A study of Mus musculus with 33 samples.

Results

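Chromatin bound by Gata4 in fibroblasts that received Gata4 without its usual partners was compared with unprecipitated input chromatin. The comparison took 7 of the 33 libraries of the series, chosen by their labels: 4 Gata4 ChIP libraries from cells infected with the Gata4 retrovirus alone, and 3 single-factor inputs, 1 each from cells infected with Gata4, Mef2c or Tbx5 alone. All came from 1 immortalised line of neonatal cardiac fibroblasts of Cd-1 mice, which carried an alpha-MHC-GFP reporter and large T antigen, was treated with sb431542 and xav939, and was harvested unsorted on day 2 after infection. ChIP used a goat antibody to Gata4, and reads had been counted in 30815 regions of the mm9 genome, 201 to 1484 bp wide. Gata4 ChIP libraries 1 to 3 formed the tested arm, and library 4, whose near-input level was known when the comparison was set up, was held as a check.

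Gata4 is a zinc-finger transcription factor of the developing heart that binds GATA motifs, also in closed chromatin. With the MADS-box factor Mef2c and the T-box factor Tbx5 it makes up a cocktail that turns fibroblasts towards cardiomyocyte-like cells. The inhibitor sb431542 blocks Tgfβ receptors and xav939 lowers Wnt signalling, and both are used to raise the yield of that conversion. A retroviral promoter drives the factor in whatever fibroblast the virus enters, so unsorted cells can mix infected and uninfected ones. In such pooled chromatin, more bound cells and more binding per cell cannot be told apart.

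The Gata4 libraries held 483183, 591033 and 454716 counts in libraries 1 to 3 and 222761 in library 4, against 127871, 125181 and 97474 in the inputs from Gata4, Mef2c and Tbx5 cells. The median region held 9, 10 and 9 reads in Gata4 libraries 1 to 3 and 7 in library 4, against 4, 4 and 3 in the inputs. The decile of regions with the most reads took 36.3%, 39.3% and 36.2% of counts in Gata4 libraries 1 to 3 and 21.2% in library 4, against 23.6%, 24.0% and 25.8% in the inputs. By this measure library 4 lay below all 3 inputs, which held fewer counts. The inputs of cells with all 3 factors, with 165517 to 301678 counts, gave 20.3% to 22.2%, a range that holds library 4. In a chi-square test of counts over regions, library 4 differed from libraries 1 to 3 by 4.63 to 6.40 per degree of freedom, from the single-factor inputs by 1.08 to 1.31, and from inputs of 3-factor cells by 1.05 to 1.11. This measure grows with counts for the same difference, and libraries 1 to 3 held more counts than any input. The part of depth in these values was not tested. Whether the library labelled Gata4 4 holds precipitated chromatin with little enrichment or input chromatin cannot be told apart here. Gata4 libraries 1 to 3 differed among themselves by 1.66 to 2.25, and the inputs by 1.13 to 1.45, so none was counted as a repeat of another. The 5 regions on the Y chromosome drew 45.5, 284 and 260 CPM in Gata4 libraries 1 to 3 and 18.0 in library 4, against 62.6, 71.9 and 30.8 CPM in the inputs. Y-chromosome counts thus differed among libraries of 1 group and 1 line, and their part in the results was not tested. CPM here and below are reads of a region scaled by the total over all regions.

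Gata4 libraries 1 to 3 stood above the inputs at 1265 of 10952 tested regions, which is 11.6% of those tested, and below them at 1817 regions, or 16.6% (edgeR quasi-likelihood test, Benjamini-Hochberg adjusted p below 0.05). At the higher regions the median level was 116 CPM for Gata4 and 26.9 CPM for the inputs, with a median log2 fold change of 1.59. At the lower regions it was 18.1 CPM for Gata4 and 58.2 CPM for the inputs, with a median log2 fold change of -2.23. The median standard error of the log2 fold change was 0.47 among the higher regions. Most higher regions were of moderate fold: 1251 passed a log2 fold change of 1, 240 passed 2 and 30 passed 3. All 3 Gata4 libraries lay above all 3 inputs at 1263 of the 1265 higher regions, and at 41.1% of the regions tested. All 3 lay below all inputs at 1607 of the 1817 lower regions, and at 15.3% of the regions tested.

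These calls held for libraries 1 to 3 and not for the group of 4. With library 4 in the Gata4 arm, edgeR called 0 of 8439 tested regions in either direction, and 1766 had an unadjusted p below 0.05. The 1201 of the 1265 regions still tested had a median log2 fold change of 1.34, against 1.59 at all 1265 without library 4. With the tested regions held at 10952, the median of the 1265 was 1.44. The fold was positive at all 1201, but libraries 1 to 3 had chosen these regions and make up most of the arm. That sign is therefore no support. Library 4 itself lay at a median log2 value of 0.01 over the 3-factor inputs at the 1265 regions, with 50.6% above 0. With all 4 Gata4 libraries, DESeq2 called 3 higher and 63 lower regions, and edgeR without a filter called 23 higher and 1 lower. Without Gata4 library 1, 2 or 3, and with the filter redone so that 2593 to 2931 regions were tested, 70, 46 and 59 were higher and 383, 310 and 362 lower. Without the input of Gata4, Mef2c or Tbx5 cells, and with 20483 to 22710 regions tested, 2718, 3506 and 4611 were higher and 2523, 3228 and 4217 lower. With the tested regions held at 10952, leaving out Gata4 library 1, 2 or 3 gave 1474, 687 or 1160 higher calls. Leaving out the input of Gata4, Mef2c or Tbx5 cells gave 675, 768 or 811. The 3 inputs came from cells with different viruses and were treated as replicates, so the p-values measure spread between those cells as well as between libraries.

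**Figure D1:**
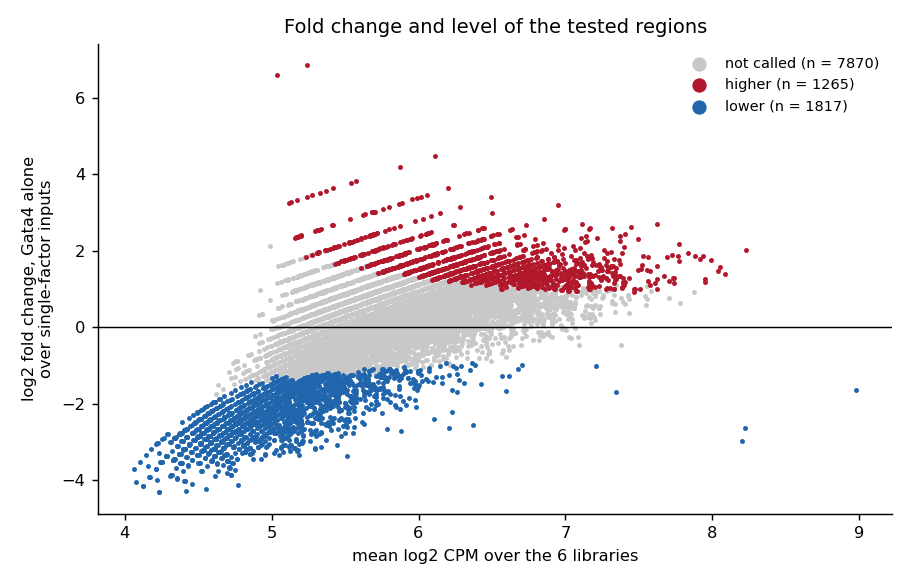
Each point is 1 of the 10952 tested regions, with mean log2 CPM over the 6 libraries on the x axis and the log2 fold change of Gata4 libraries 1 to 3 over the single-factor inputs on the y axis. The 1265 higher regions (red) reach to the right of the plot, and most of the 1817 lower regions (blue) lie at its left edge, where levels are low.

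The zero of these fold changes depended on scaling. The trimmed-mean (TMM) factors averaged 1.19 in Gata4 libraries 1 to 3 and 0.842 in the inputs, which moved every log2 fold change by 0.50 relative to library totals. The median tested region had a log2 fold change of 0.16 with TMM and 0.66 with library totals. Calls split into 1265 higher and 1817 lower with TMM, so that 41.0% were higher, and into 3564 higher and 1443 lower with library totals, so that 71.2% were higher. DESeq2 called 562 higher and 1698 lower, or 24.9% higher. Without a filter on low counts, 6056 of 30813 regions were higher and 3057 lower, or 66.5% higher. All 1265 higher regions kept a positive fold change under each of these settings, and 547 of them (43.2%) were called higher under all 8 settings of scaling, test, filter and inputs tried with libraries 1 to 3, the test against a minimum fold left aside.

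Higher and lower regions passed the filter on low counts through different libraries. It kept a region where at least 3 libraries passed 34.3 CPM, which is a handful of reads in an input. Of the regions kept, 5819 reached that level in all 3 Gata4 libraries and not in all inputs, and 1142 of these were higher and 2 lower. Another 1869 reached it in all inputs and not in all Gata4 libraries, and 1622 of these were lower and 0 higher. Among the 1336 regions that reached it in both arms, 123 were higher (9.21%) and 78 lower (5.84%). Most calls in either direction thus came from regions tested only because the arm in which they were high passed the filter, and neither count is support by itself.

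**Figure D2:**
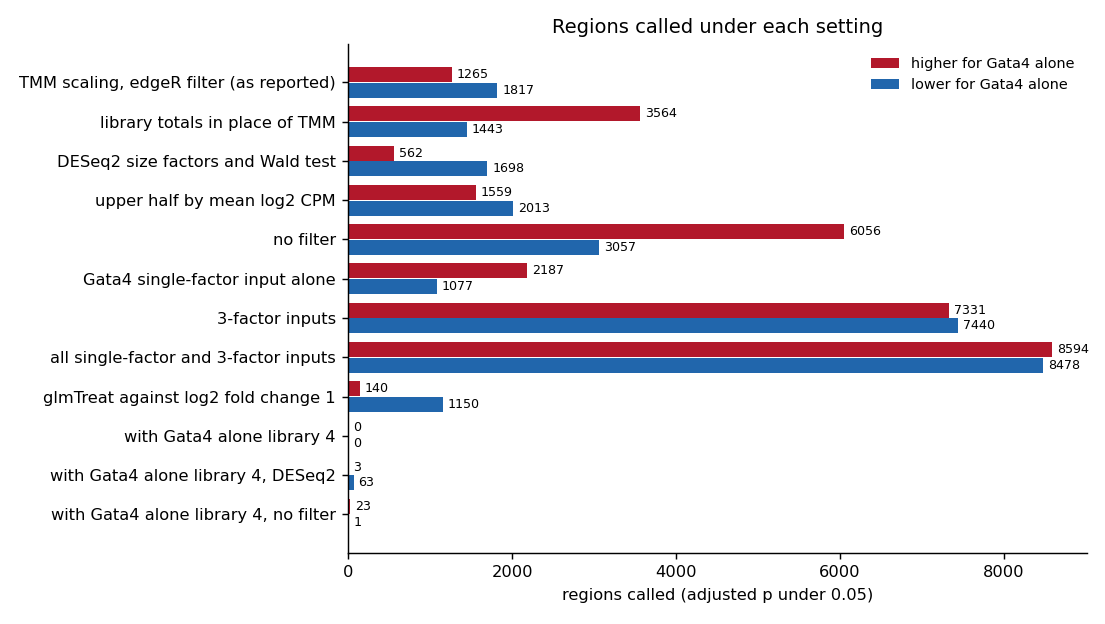
Bars give the number of regions called higher (red, upper bar) and lower (blue, lower bar) for Gata4 alone at an adjusted p under 0.05, under 12 settings, with the counts beside the bars. Counts run from 0 and 0 with library 4 to 8594 and 8478 with all single-factor and 3-factor inputs, and the larger of the 2 directions changes with scaling and filter.

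A second set of inputs, made from cells with all 3 factors and used in none of the 1265 and 1817 calls, gave a reading of each library on a common base. Their 6 libraries held 1363713 counts, more than the 350526 of the single-factor inputs, and some agreed within sampling noise, so that they counted as 3 samples. At the 1265 higher regions, Gata4 libraries 1, 2 and 3 lay at median log2 values of 2.07, 2.35 and 2.07 over these inputs, library 4 lay at 0.01, and the single-factor inputs of Gata4, Mef2c and Tbx5 cells lay at -0.30, -0.23 and -0.49. The 3 Gata4 libraries and the single-factor inputs had both chosen the regions, so these values are a description, while library 4 had not. At the 1817 lower regions, Gata4 libraries 1 to 3 lay at -0.72, -0.78 and -0.59, library 4 at 0.10, and the inputs of Gata4, Mef2c and Tbx5 cells at 0.44, 0.37 and 0.30. Measured on the second inputs, the lower regions thus combined Gata4 values below 0 with single-factor inputs above 0.

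**Figure D3:**
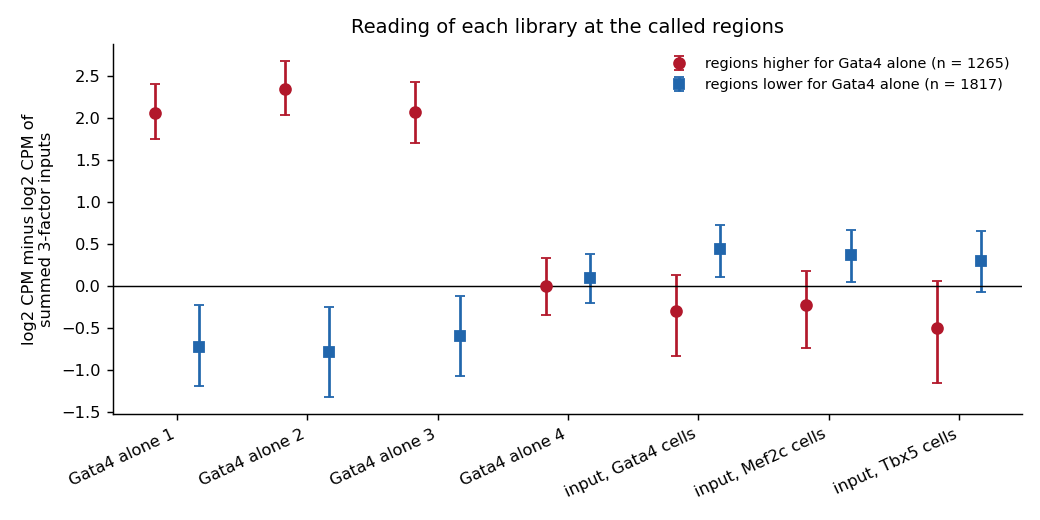
Points give the median, and bars the quartiles, of log2 CPM minus that of the summed 3-factor inputs, at the 1265 regions higher (red circles) and the 1817 regions lower (blue squares) for Gata4 alone. Gata4 libraries 1 to 3 lie between 2.07 and 2.35 at the higher regions, library 4 lies at 0.01, and the 3 single-factor inputs lie below 0.

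Each Gata4 library was then read at regions chosen without it. The 500 regions with the largest fold of the other Gata4 libraries over the single-factor inputs were taken, and the left-out library was set against the 3-factor inputs. The left-out library lay at a median log2 value of 1.97 for library 1, 2.24 for library 2 and 1.95 for library 3, with 99.4%, 99.8% and 99.2% of the 500 regions above 0. Over all 10952 tested regions these libraries lay above 0 at 82.7%, 82.8% and 81.3%, with medians of 1.17, 1.27 and 1.07. Through the filter, libraries 1 to 3 had helped to choose those tested regions. Library 4, read at regions chosen with libraries 1 to 3, lay at -0.04 with 46.8% of regions above 0. Each of libraries 1 to 3 thus lay above the 3-factor inputs at regions the others had chosen, with medians between 1.95 and 2.24. Libraries 1 to 3 were kept, and library 4 set aside, with the near-input level of library 4 known. All these values are therefore descriptions. The 500 regions were drawn without a filter, whereas the 10952 had passed it, so their shares have unlike bases. This choice of regions, by fold alone and without a filter, was made after seeing the data. The version with an adjusted p below 0.05 left 59, 32 and 42 regions, with medians of 2.49, 2.93 and 2.47 for libraries 1, 2 and 3.

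By a fixed rule, 25 regions were singled out: of the called regions above the median level with all Gata4 libraries beyond all inputs (1160 higher, 93 lower), the 10 with the largest fold in each direction and the 5 with the highest Gata4 level. Regions are given in mm9. No annotation of that build was used, and nearby genes were not analysed here.

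Among the 1160 higher regions that met the rule, the largest fold was at chr5:5610421-5610643, 223 bp wide. It held 89.0, 113 and 94.6 CPM in Gata4 libraries 1 to 3 and 22.4 CPM in library 4, against 7.82, 0 and 0 CPM in the inputs of Gata4, Mef2c and Tbx5 cells, which is 153 reads in Gata4 libraries 1 to 3 against 1 read in the inputs. All 3 Gata4 libraries lay far above the inputs, and library 4 lay between. The ratio of pooled CPM, without TMM, was 35.1, with a 95% counting interval of 6.20 to 1394. With TMM the log2 fold change was 4.48 with SE 0.79 (adjusted p = 0.000106, edgeR). This region and the other 9 of the list were tested only because their Gata4 libraries passed the filter, so their p-values are no independent support. Against the 22 reads of the 3-factor inputs the ratio was 6.20 (3.95 to 10.2). Gata4 in cells with all 3 factors averaged 18.2 ± 3.38 CPM here, against 15.5 ± 3.65 CPM in their own inputs (SD, n = 5 and 3, adjusted p = 0.295), so the region was not called there.

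The second, chr15:85583704-85584336, held 147, 59.2 and 39.6 CPM in Gata4 libraries 1 to 3 and 31.4 CPM in library 4, against 7.82, 0 and 0 CPM in the inputs. Gata4 library 1 was the highest, and the lowest of the arm was close to library 4. The ratio over the single read of the inputs was 28.4 (5.01 to 1132), but over the 68 reads of the 3-factor inputs it was 1.63 (1.20 to 2.22). With TMM the log2 fold change over the single-factor inputs was 4.19 with SE 1.02 (adjusted p = 0.00264, edgeR). ChIP of Mef2c alone averaged 0.363 ± 0.629 CPM here and of Tbx5 alone 1.47 ± 1.28 CPM (SD, n = 3 each), while the 3-factor inputs averaged 46.5 ± 10.7 CPM (SD, n = 3). The single-factor inputs and both single-factor ChIP groups were thus nearly empty where the 3-factor inputs were not.

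At the region of rank 3, chr19:19284626-19284836, Gata4 libraries 1 to 3 held 82.8, 144 and 88.0 CPM and library 4 held 62.8 CPM, against 7.82, 7.99 and 0 CPM in the inputs. Library 4 was higher here than at the other 9 regions of this list. The ratio was 18.9 (5.15 to 157), and 4.09 (2.84 to 6.04) over the 3-factor inputs. With TMM the log2 fold change over the single-factor inputs was 3.64 with SE 0.70 (adjusted p = 0.000267, edgeR). Gata4 in 3-factor cells averaged 16.6 ± 6.97 CPM, against 25.5 ± 2.76 CPM in their inputs (SD, n = 5 and 3, adjusted p = 0.560).

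The other 7 regions of this list held 80.2 to 133 CPM on average in Gata4 libraries 1 to 3 and 5.21 to 7.93 CPM in the inputs. All 10 rested on 1 to 3 input reads, so the list orders regions by near-empty inputs as much as by Gata4 level. Over the 3-factor inputs their ratios ran from 1.63 to 6.20. Library 4 lay below libraries 1 to 3 at all 10. In cells with all 3 factors, Gata4 was called higher at 7 of the 10 and lower at 0, against 53.7% and 11.4% of the regions tested in both comparisons and 28.8% and 27.2% of all regions tested there.

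**Figure D4:**
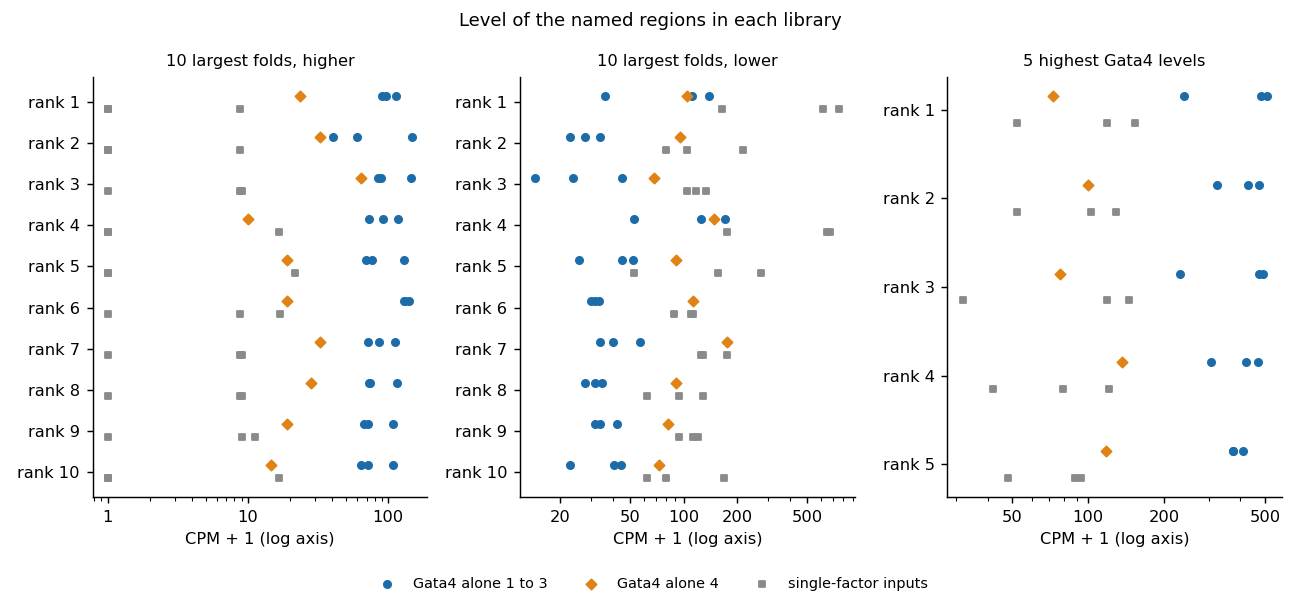
Each row is a region and each mark a library, on a log axis of CPM + 1, with Gata4 alone libraries 1 to 3 (blue), library 4 (orange) and the 3 single-factor inputs (grey). Library 4 lies left of libraries 1 to 3 at all 10 regions of the left panel and all 5 of the right panel, and right of them at 8 of the 10 in the middle panel.

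The 5 regions with the highest Gata4 level among those that met the rule rested on more input reads, 26 to 39 in all. A higher region outside the rule held up to 753 Gata4 reads, and the first of the 5 held 630. That first, chr18:82743165-82744018, held 238, 481 and 508 CPM in Gata4 libraries 1 to 3 and 71.8 CPM in library 4, against 117, 152 and 51.3 CPM in the inputs. The groups did not overlap, and library 4 lay within the range of the inputs. Gata4 exceeded the inputs by 1.39 ± 0.41 on the log2 scale (SE; adjusted p = 0.0127). ChIP of Gata4 in 3-factor cells averaged 271 ± 74.1 CPM, against 86.7 ± 17.1 CPM in their inputs (SD, n = 5 and 3), a log2 fold change of 2.00.

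At chr8:129851984-129852809, Gata4 libraries 1 to 3 held 321, 474 and 429 CPM and library 4 held 98.8 CPM, against 102, 128 and 51.3 CPM in the inputs, or 1.58 ± 0.39 on the log2 scale (SE; adjusted p = 0.00291). Library 4 again lay within the range of the inputs. At chr9:89854866-89856349, the widest of all regions at 1484 bp, they held 230, 491 and 473 CPM and library 4 held 76.3 CPM, against 117, 144 and 30.8 CPM in the inputs, or 1.47 ± 0.43 on the log2 scale (SE; adjusted p = 0.0116). Over the same 10952 regions, the call at the chr18 region was lost on leaving out Gata4 library 2 (adjusted p = 0.0603), Gata4 library 3 (0.0528), the input of Gata4 cells (0.0521) or that of Tbx5 cells (0.0661), and the call at the chr9 region on leaving out Gata4 library 2 (0.0617) or the input of Tbx5 cells (0.0658). With the filter redone and any 1 of the Gata4 libraries left out, all 3 calls were lost, at log2 folds of 0.39 to 0.91, and none of the 3 passed glmTreat. Library 1 was the lowest of the 3 at each of these regions, and the input of Tbx5 cells the lowest input.

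Gata4 in 3-factor cells was higher than its inputs at all 5 of these regions. The share was 53.7% of the regions tested in both comparisons, and 58.2% of the regions of 500 bp or more, a class that holds all 5. Mef2c alone and Tbx5 alone were each lower than the 3-factor inputs at 4 of the 5. Of the regions tested in both comparisons, 45.4% were lower for Mef2c alone and 35.0% for Tbx5 alone. The exception was chr18:73989806-73990766, where Mef2c alone averaged 130 CPM and Tbx5 alone 112 CPM and both were called higher. There, Gata4 libraries 1 to 3 held 375, 408 and 374 CPM and library 4 held 117 CPM, against 46.9, 87.9 and 92.3 CPM in the inputs, and Gata4 alone was also higher than either of the other factors.

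Among the 93 lower regions that met the rule, the largest fold was at chr2:77828299-77828584, which held 35.2, 110 and 139 CPM in Gata4 libraries 1 to 3 and 103 CPM in library 4, against 759, 615 and 164 CPM in the inputs. Both arms varied widely, and the input of Tbx5 cells was close to the highest Gata4 library. On the log2 scale the difference was -2.98 ± 0.47 (SE; adjusted p = 2.84e-05). The region of rank 4, chr2:77757143-77757404, showed the same layout, with 51.7, 125 and 172 CPM in Gata4 libraries 1 to 3 and 148 CPM in library 4, against 673, 647 and 174 CPM in the inputs. At both, the inputs of Gata4 and Mef2c cells held several times as many reads as that of Tbx5 cells. Over the 3-factor inputs neither was called, with log2 differences of -0.82 (adjusted p = 0.393) at the first and -0.48 (adjusted p = 0.628) at the second, nor over all inputs (-1.36, adjusted p = 0.180, and -1.03, adjusted p = 0.293).

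The lower regions of ranks 2 and 3 were wider, at 851 and 814 bp. At chr15:68243764-68244614, Gata4 libraries 1 to 3 held 26.9, 22.0 and 33.0 CPM and library 4 held 94.3 CPM, against 78.2, 104 and 215 CPM in the inputs (log2 difference -2.72 with SE 0.40; adjusted p = 1.57e-05). At chr3:103779795-103780608 they held 22.8, 13.5 and 44.0 CPM and library 4 held 67.3 CPM, against 117, 104 and 133 CPM in the inputs (log2 difference -2.66 with SE 0.42; adjusted p = 3.30e-05). Library 4 lay above libraries 1 to 3 at both, and within the inputs at the first. Over the 3-factor inputs the log2 differences were -1.79 and -1.52 and both were called, while over the input of Gata4 cells alone the first was -1.23 and was not called (adjusted p = 0.153). Gata4 in cells with all 3 factors was higher than its inputs at both, and at the first it averaged 311 ± 50.2 CPM, against 111 ± 21.2 CPM in the inputs (SD, n = 5 and 3, adjusted p = 6.63e-07). Of the 10 lower regions, Gata4 in 3-factor cells was called higher at 4 and lower at 1, near the 53.7% and 11.4% of the regions tested in both comparisons.

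Whether the regions of Gata4 alone were also bound by Gata4 beside its partners was read in libraries with no part in the calls: 6 Gata4 ChIP libraries from cells with all 3 viruses, of which 2 agreed within sampling noise and were summed, against the 3-factor inputs. Gata4 was higher there at 984 of the 1262 higher regions tested in both (78.0%), against 28.8% of all 29058 regions tested there and 53.7% of the regions tested in both comparisons. It was lower at 6, or 0.475%, against 27.2% of all regions tested there and 11.4% of the regions tested in both. The median log2 fold change was 1.26 at these regions, against 0.82 at the regions tested in both. All 1265 higher regions had passed the filter in all 3 Gata4 libraries, whereas the regions tested in both included some that passed only through inputs. The part of this difference in the contrast was not tested. The 984 regions were 77.8% of the 1265 and 11.8% of the 8357 regions called higher with the partners. At the 1817 lower regions, Gata4 in 3-factor cells was higher at 514 (28.4%) and lower at 275 (15.2%) of the 1809 tested. These shares compare with 53.7% and 11.4% of the regions tested in both, and 28.8% and 27.2% of all regions tested there.

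The share was larger at regions with a larger fold for Gata4 alone. Among tested regions split into deciles by the fold change of Gata4 alone, the median log2 fold change of Gata4 in 3-factor cells was 1.24 in the highest decile and 0.10 in the lowest, and the share called higher was 75.3% and 18.7%. In deciles 6, 7 and 8 from the lowest, which held 0, 0 and 7 of the higher regions, the share was already 62.8%, 61.5% and 63.2%. For Mef2c alone the order ran the other way, with a median of -0.97 in the highest decile and -0.01 in the lowest. For Tbx5 alone the medians had no single order, at -0.21 in the highest decile, 0.46 in the second lowest and -0.46 in the lowest. The median region was 262 bp wide in the highest decile and 358 bp in the lowest, and the median level in the 3-factor inputs was 28.6 and 42.5 CPM, so width and input level moved with the deciles. Their part in the result was not tested.

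**Figure D5:**
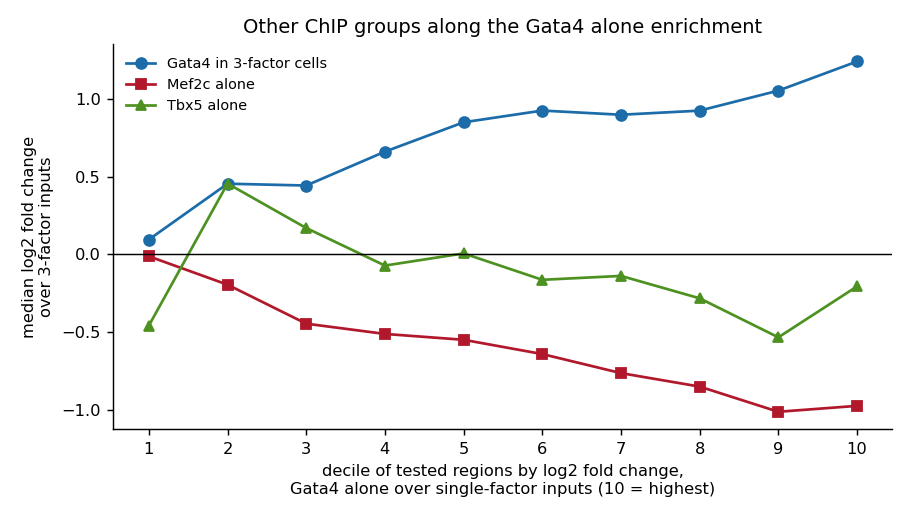
Tested regions are split into deciles by the log2 fold change of Gata4 alone over the single-factor inputs, lowest to highest from left to right, and lines give the median log2 fold change of 3 other ChIP groups over the 3-factor inputs. Gata4 in 3-factor cells (circles) runs between 0.10 and 1.24, Mef2c alone (squares) between -0.01 and -1.01, and Tbx5 alone (triangles) between 0.46 and -0.53.

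ChIP of Mef2c alone over the 3-factor inputs was higher at 217 of the 1121 higher regions tested (19.4%), against 34.1% of all regions tested there, and lower at 588 (52.5%), against 40.3%. Tbx5 alone was higher at 207 of 918 (22.5%), against 34.2%, and lower at 366 (39.9%), against 36% of all. Of the regions tested in both comparisons, 26.5% were higher for Mef2c alone and 32.2% for Tbx5 alone, so both higher shares lay below either background. The regions tested in both again included some that passed the filter only through inputs. With library totals in place of TMM, the higher calls among these regions were 75 for Mef2c alone and 133 for Tbx5 alone. Shares over all regions under that scaling are not given here, so these counts have no background to be read against. The 3 comparisons over the 3-factor inputs share those inputs.

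Tested against the other factors directly, Gata4 alone was higher than Mef2c alone at 1168 of the 1265 regions (92.3%), against 45.6% of all regions tested, and lower at 45 (3.56%), against 41.2%. It was higher than Tbx5 alone at 1181 (93.4%), against 43.6%, and lower at 15 (1.19%), against 39.6%. Of the regions of the main comparison that were also tested here, 69.0% were higher and 19.1% lower against Mef2c alone. Against Tbx5 alone the shares were 63.1% and 18.6%. Gata4 alone exceeded both at 1103 (87.2%), against 6213 of the 13846 regions tested in both. The same Gata4 libraries had chosen these regions, so the shares describe them and are no second measurement of Gata4. With library 4 in the Gata4 arm the counts were 1093 over Mef2c and 1063 over Tbx5, and the shares over all regions in that setting are not given here.

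Combining these calls, 675 of the 1265 regions (53.4%) were higher for Gata4 alone and Gata4 in 3-factor cells and for neither Mef2c nor Tbx5 alone, against 30.0% of the 10952 tested regions. Another 114 (9.01%) were also higher for Mef2c alone and not Tbx5 alone, against 7.43% of the tested regions. For Tbx5 alone and not Mef2c alone it was 127 (10.0%), against 11.7%, and for both 68 (5.38%), against 4.33%, all near the background. A further 46 (3.64%) were higher for Mef2c or Tbx5 alone and not for Gata4 in 3-factor cells, against 20.3%, and 235 (18.6%) for none of these groups, against 26.2% of the tested regions. Of the 1817 lower regions, 1236 (68.0%) were higher for Mef2c alone or Tbx5 alone, against 43.8% of the tested regions. In each of these contrasts the tested regions mixed those that passed the filter through Gata4 libraries and those that passed through inputs. A region not tested for a group counted as not higher for it. Of the 1265 regions, 1121 were tested for Mef2c alone and 918 for Tbx5 alone. Of the 1817 lower regions it was 1773 and 1670, and of the 10952 it was 10064 and 8810.

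The 272 higher regions that were tested and not called with the partners had a median fold change for Gata4 alone of 1.59 on the log2 scale, as had the 984 that were called. Their median level was 101 CPM for Gata4 alone and 23.4 CPM for the single-factor inputs, against 122 and 28.7 CPM at the 984. Their median width was 271 bp, against 304.5 bp. Fold was alike in these regions while level and width were lower, and neither difference was tested.

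The higher regions were spread over widths and chromosomes. They made up 12.4% of the tested regions of 500 bp or more, 10.8% of those from 250 to under 500 bp and 12.5% of those under 250 bp. Lower regions made up 29.2%, 18.8% and 7.53% of the same classes. Only 19.8% of the regions under 250 bp passed the filter, against 87.9% of the widest class, and without a filter the higher shares were 36.5%, 25.5% and 14.1%. The even share across widths therefore belonged to the filtered regions alone. Regions within 1 kb of another were higher in 14.6% of cases, those at 1 to 10 kb in 9.77% and those farther away in 11.7%. Over the 19 autosomes the share ran from 7.51% on chromosome 6 to 14.6% on chromosome 17, with a median of 11.7%. On the X chromosome 16 of 90 tested regions were higher (17.8%), but only 14.7% of its regions passed the filter. Without a filter 17.9% of X regions were higher, within the autosomal range of 16.4% on chromosome 4 to 24.2% on chromosome 11. Of the 5 regions on the Y chromosome 1 passed the filter, and it was not called. Without a filter all 5 were called higher, and their median log2 fold was 2.44. Most of their reads in the tested Gata4 arm came from libraries 2 and 3.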

How the data were processed

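The authors deposited whole-number read counts per region as 1 table for the series, not normalised. Per the submitters' processing notes, reads were checked with FastQC, aligned with Bowtie2 2.2.4 to mm9 and counted with featureCounts. How the regions were selected and how duplicates were handled is not given in the sources used here. Library sizes were totals over the 30815 regions. The counts were tested with edgeR 4.0.16 in R 4.3.3 (filterByExpr with a minimum count of 10 and a total of 15, TMM scaling, robust quasi-likelihood F test, two-sided, Benjamini-Hochberg over all regions tested, threshold 0.05), and the script was tested on simulated data. DESeq2 1.42.0 was an alternative. CPM divide the counts by plain library totals, with TMM left out. Readings of single libraries added a prior count of 2. Ratios carry exact 95% intervals on pooled counts, which cover counting error only. In the 3-factor cells, libraries that agreed within sampling noise were summed, giving 5 Gata4 samples and 3 inputs. Named regions were called, above the median level and separated in every library, ranked by fold (10 each way) or Gata4 level (5). The members, lists and rules were chosen with earlier results of these data known. Motifs and nearby genes were planned only where a genome of the same build was at hand, and were not analysed here. Replicate numbers shared by Gata4, Mef2c and Tbx5 did not pair the samples. The labels call the ChIP libraries biological replicates.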

Additional observations from a re-analysis of the deposited data

Results flagged for a closer look

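In 8 of 30 values examined, 1 Gata4 library of 4 stood apart from the other 3 by Dixon's criterion, and in all 8 it was library 4. Chance flags about 1 group in 20, but that rate does not apply here, because library 4 was set aside with its near-input level known. All 8 flagged values of library 4 are also at regions chosen with libraries 1 to 3, 6 of them at single named regions. The median log2 reading of library 4 over the 3-factor inputs was 0.00505 at the regions higher for Gata4 alone. Its reading at the regions with the largest fold in libraries 1 to 3 was -0.0358. It was low at chr8:87904885-87905091, with 18.0 CPM, and at chr18:73989806-73990766, with 117 CPM. It was high at 4 regions that were lower for Gata4 alone: 94.3 CPM at chr15:68243764-68244614, 112 CPM at chr8:46683369-46684040, 175 CPM at chr14:55586797-55587044 and 89.8 CPM at chr2:69593197-69593772. At these 4 regions it lay within or near the range of the single-factor inputs.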

How the results depend on the processing

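The count of 1265 higher regions moved by over 1.5 times under most choices, and that of 1817 lower regions under fewer: it stayed within 1.5 times with library totals (1443), DESeq2 (1698), regions above the median level (2013), without the input of Gata4 cells (2523) and with each library left out over the same regions. No named region changed sign, but the balance did: 41.0% of calls were higher with TMM and 71.2% with library totals. Higher calls numbered 3564 with library totals, 562 with DESeq2 and 140 against a log2 fold change of 1 (glmTreat), and lower calls 1150 with glmTreat. With no filter there were 6056 higher and 3057 lower, with the Gata4 input alone 2187 and 1077, with the 3-factor inputs 7331 and 7440, and with all inputs 8594 and 8478. With library 4 there were 0 and 0 in edgeR, also over the same 10952 regions, 23 and 1 with no filter, and 3 and 63 in DESeq2. Leaving out 1 library at a time gave 46 to 4611 higher and 310 to 4217 lower. The low ends came from leaving out a Gata4 library, where the filter then tests only 2593 to 2931 regions. With the 10952 regions kept, an alternative added after seeing the data, leaving out Gata4 library 2 or an input gave 675 to 811 higher calls (687, 675, 768 and 811). Leaving out Gata4 library 1 or 3 gave 1474 or 1160. Higher calls for Mef2c alone and Tbx5 alone among the 1265 regions moved to 75 and 133 with library totals, given without a background share under that scaling. The left-out readings of libraries 1, 2 and 3 moved to 1.99, 2.32 and 1.99 with library totals, and to 1.97, 2.24 and 1.95 with 500 regions by fold. With the replicate number as a block, Gata4 alone stayed higher at 1168 regions over Mef2c and 1181 over Tbx5, the counts without it, and same-numbered libraries correlated by -0.03 to 0.04. Of 576 values for the 25 named regions under alternatives, 452 kept their call and 124 lost it, 85 of them among the 98 with library 4. Low input depth limits the folds, since 2 higher regions had no input read and 90 had 1 to 3.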
